A study of Homo sapiens with 9 samples.

Results

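The RNAs described here are long noncoding RNAs (lncRNAs) named as divergent transcripts: each carries the symbol of a protein-coding gene followed by -DT, because its annotated promoter faces that gene's promoter on the other strand. They were selected on their siControl level, as the lncRNA genes with such a symbol whose reads, summed per gene, averaged 50 or more over the siControl libraries. This gave 67 of the 580 -DT lncRNA genes in the quantification, out of 58425 genes in all. That level is therefore given below as a description only. U2OS is a human osteosarcoma cell line, and nuclear RNA was isolated from it 48 hours after transfection with 15 nM siRNA. There were 3 groups of 3 libraries: siDyskerin, against dyskerin (gene DKC1), the pseudouridine synthase of the H/ACA ribonucleoprotein; siGAR1, against the GAR1 subunit of the same particle; and siControl. All groups are the same line and the same siRNA dose and time, and the study calls the 3 libraries of a group biological replicates. The comparison asks whether loss of either H/ACA subunit changed the amount of these RNAs in the nucleus, alone and relative to the coding gene they face.

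Many promoters of protein-coding genes fire in both directions. The transcript that runs away from the coding gene is usually short of the splice sites that protect a nascent RNA and carries early poly(A) signals, so that it ends soon and is broken down in the nucleus by the RNA exosome with its adaptors. Some divergent RNAs are nevertheless spliced and stable enough to be annotated as lncRNAs, and nuclear RNA is where they are best seen. H/ACA particles are guided by small nucleolar RNAs (snoRNAs) to make pseudouridine in other RNAs and also bind telomerase RNA.

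The libraries held 48838756 to 90698675 reads, and 18444 genes passed the filter on low counts, all 67 members and 66 of their 67 coding partners among them. The targeted genes followed the labels. DKC1 had 3075 to 3124 normalized counts in siDyskerin libraries, 22628 to 26060 in siGAR1 libraries and 20777 to 22716 in siControl libraries. GAR1 had 83.9 to 115 normalized counts in siGAR1 libraries, 710 to 718 in siDyskerin libraries and 594 to 664 in siControl libraries. Here a normalized count is a gene's read sum scaled to a common library size. The line's own markers were as labelled in part: 6 of 7 bone and mesenchymal genes were above 1 TPM in each group, and so were 2 of 6 epithelial genes, EPCAM (1.77 TPM in siControl) and CDH1 (1.37 TPM), while COL1A2 was at 0.00401 TPM in siControl and at or below 0.0118 TPM in the knockdowns. The nuclear lncRNA MALAT1 stood at 1205 TPM in siControl.

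By position the members were what their names say. All 67 lay on the strand opposite their partner, on 21 chromosomes, and 49 had their annotated gene start within 300 bases of the partner's, 60 within 1000 bases. In 44 the starts stood back to back with a median gap of 113.5 bases (23 to 594 bases), and in 23 the 2 genes overlapped at their starts. The canonical transcript was spliced in 53 members and had 1 exon in 14. The gene start is not always the start of the transcript with the most reads, however. In 62 members the transcript with the most reads began within 1000 bases of an annotated start of the partner, and in the other 5 it began farther away. These were RIPK2-DT (140649 bases), PPP1R3B-DT (37452 bases), GARS1-DT (15916 bases), ITGB1-DT (9912 bases) and ZNF584-DT (1353 bases). For those 5 the annotated start of the transcript with the most reads is not at the shared promoter, so reads counted under the -DT symbol may come from elsewhere.

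The stretches below are shown because they lie in the shared promoters of pairs the results turn on. They were read from GRCh38 with GENCODE 44 gene starts, on the strand of the lncRNA. For these 4 pairs they are the bases strictly between the 2 gene starts, which overlap no annotated exon: chr5:149063164-149063238 (plus strand, SH3TC2-DT and SH3TC2), chr3:129893712-129893810 (plus strand, TMCC1-DT and TMCC1), chr6:2245606-2245717 (plus strand, GMDS-DT and GMDS) and chr16:89217654-89217702 (minus strand, ZNF778-DT and ZNF778). Capitals mark the GC box GGGCGG or the ETS motif CCGGAAG, on either strand.
SH3TC2-DT: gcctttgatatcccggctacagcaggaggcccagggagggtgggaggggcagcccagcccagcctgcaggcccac
TMCC1-DT: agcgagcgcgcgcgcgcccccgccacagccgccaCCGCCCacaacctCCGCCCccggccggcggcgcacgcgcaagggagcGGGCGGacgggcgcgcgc
GMDS-DT: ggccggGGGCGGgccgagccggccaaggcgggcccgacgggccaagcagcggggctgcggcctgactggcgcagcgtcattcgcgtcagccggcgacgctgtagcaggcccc
ZNF778-DT: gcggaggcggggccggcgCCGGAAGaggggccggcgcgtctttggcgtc

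The promoters of the members were rich in G and C. Over the 300 bases from 250 before to 50 after the gene start, the median GC content was 69.7% in members, 67% in their partners, 55.0% in the 2518 lncRNA genes tested and 60.7% in all 18431 genes with a window. A GC box stood on either strand in 48 members (71.6%), against 53.8% of all windows. The ETS motif stood in 16 (23.9%), against 13.3%. Neither share is particular to the members. The GC box stood in 68.7% of partners and 69.5% of the 131 -DT lncRNAs tested below the threshold, and the ETS motif in 29.9% and 26.7%. The CCAAT box (CCAAT) stood in 21 (31.3%), against 35.6%, and the TATA box TATAAA in 4 (5.97%), against 9.77%. None of these 4 motifs overlaps another in the stretches printed. A match of letters is a description and not a bound site.

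The first 1000 bases downstream of the start differed between members and partners in matches to splice donor and poly(A) signal letters. Such a match does not show a site in use. The splice donor letters GGTAAG or GGTGAG on the sense strand stood in 35 of 67 members (52.2%) and 47 of 67 partners (70.1%), and over all genes tested in 62.3%. The poly(A) signal letters AATAAA or ATTAAA stood in 31 members (46.3%) and 13 partners (19.4%), and over all genes tested in 35.5%. Other lncRNAs stood near the members. The 2518 lncRNA genes tested had splice donor letters in 52.8% and poly(A) signal letters in 49.3%. The 131 -DT lncRNAs tested below the threshold had them in 43.5% and 45.8%. These shares are thus not particular to the members. Within pairs, the lncRNA held more poly(A) signal letters than its partner in 26, fewer in 8 and as many in 33. It held more splice donor letters in 16, fewer in 31 and as many in 20. GC content over the same 1000 bases was lower in the members (median 53.4%) than in the partners (61.2%), and its part in these counts was not tested.

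In siControl nuclei most members were far less abundant than the coding gene beside them. Levels are given here in TPM, per transcript length, summed over a gene's transcripts. The members averaged 0.106 to 40.04 TPM (median 1.74), and their partners had a median of 23.4 TPM. The ratio of lncRNA to partner, averaged over the siControl libraries, had a median of 0.0782 over 66 pairs, and 38 members were under 0.1 of their partner. The 5 members above it are described next. The deposited transcript values were whole numbers in nearly all cases, so that a read that matches several transcripts of a gene may stand in more than one, which raises the summed TPM of genes with many transcripts.

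**Figure D1:**
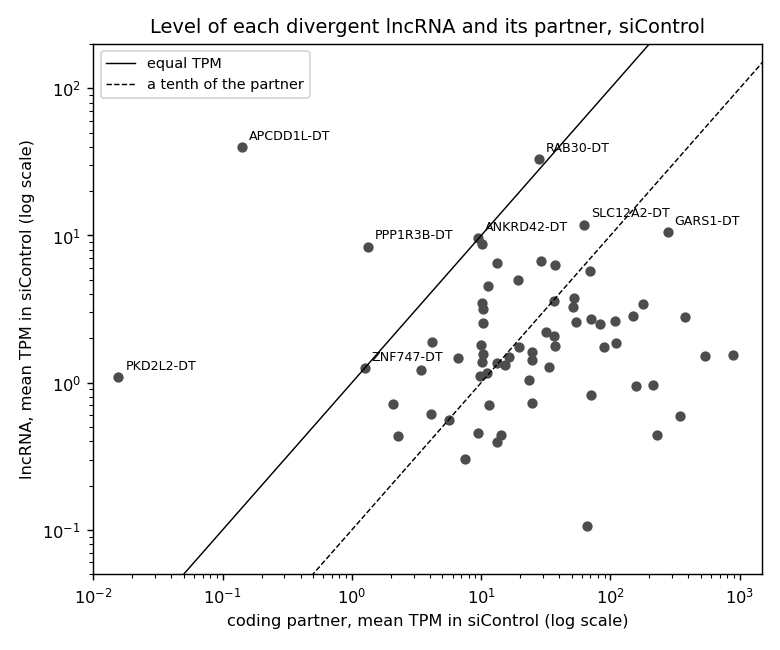
Mean TPM of each divergent lncRNA (vertical axis) against that of its coding partner (horizontal axis) in the siControl libraries, both on log scales, with 1 point a pair. Most points lie below the line of equal TPM, and APCDD1L-DT is far above it at 40.04 TPM beside a partner at 0.141 TPM.

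APCDD1L-DT was the most abundant member at 40.04 TPM, beside APCDD1L at 0.141 TPM. APCDD1L is related to APCDD1, a membrane protein that inhibits Wnt signalling. PPP1R3B-DT stood at 8.39 TPM beside PPP1R3B at 1.32 TPM. RAB30-DT (33.2 TPM), facing the Golgi GTPase gene RAB30 (27.8 TPM), had a ratio of 1.21 ± 0.185, ANKRD42-DT (9.55 TPM) one of 1.02 ± 0.0870 to ANKRD42, and ZNF747-DT one of 1.02 ± 0.199 to ZNF747 (SD, n = 3 each). For these 3 the excess over the partner was about the size of 1 SD or less. SLC12A2-DT (11.8 TPM) and GARS1-DT (10.5 TPM) complete the 5 highest, facing a sodium-potassium-chloride cotransporter at 62.8 TPM and glycyl-tRNA synthetase at 276 TPM.

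The threshold itself cut through a continuous range. Mean siControl reads ran over the members from 52.0 to 2017, with a median of 104. Just inside were DNAJC3-DT (52.0), EIF2AK3-DT (53.0) and SRP14-DT (55.0), and just outside MRPS35-DT (49.0), STAM-DT (47.7) and MTA1-DT (46.7).

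After knockdown of dyskerin, few divergent lncRNAs changed. Of 67 members, 3 passed an adjusted p of 0.01 in edgeR's quasi-likelihood test fitted over all genes, against a background of 6.40% of the 18444 genes tested. The share of members (4.48%) stood below that background, which is mostly protein-coding genes, and above the 2.07% of the 2518 lncRNA genes tested, and neither difference was tested. APCDD1L-DT and SH3TC2-DT rose (background of higher calls 3.08%), and PPP1R3B-DT fell (background of lower calls 3.32%). APCDD1L-DT and PPP1R3B-DT also passed a log2 fold change of 1 in size (background 0.938%). The members' median log2 fold change was 0.02, beside 0.00 over all genes tested, and 58 of 67 lay within 0.5 of 0. An unadjusted p under 0.05 was reached by 13 members (19.4%), by 26.1% of all genes and by 14.6% of lncRNA genes. The median standard error was 0.18 log2 units in members, 0.12 in all genes and 0.28 in lncRNA genes, so that a change of given size was less readily detected in members than in genes at large and more readily than in most lncRNAs. The siDyskerin and siControl libraries did not overlap in 17 members (25.4%), against a background of 31.4% of all genes and 22.2% of lncRNA genes.

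After knockdown of GAR1, 1 member of 67 passed, APCDD1L-DT, which rose (1.49%, beside a background of 3.42% of all genes and 0.635% of lncRNA genes, edgeR). The members' median log2 fold change was -0.02, beside 0.01 over all genes, and 62 of 67 lay within 0.5 of 0. An unadjusted p under 0.05 was reached by 8 members (11.9%), by 24.0% of all genes and by 12.5% of lncRNA genes. The siGAR1 and siControl libraries did not overlap in 13 members (19.4%), against a background of 27.7% of all genes and 18.6% of lncRNA genes. The siDyskerin and siGAR1 comparisons share the siControl libraries, so the agreement of any gene between them is not independent.

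Set against each other directly, siDyskerin and siGAR1 libraries differed in 2 members, APCDD1L-DT, which was higher in siDyskerin, and PPP1R3B-DT, which was lower (2.99%, beside a background of 5.39% of all genes and 1.59% of lncRNA genes, edgeR). Their median log2 difference was 0.02, beside -0.00 over all genes. The libraries did not overlap in 15 members (22.4%), against a background of 29.8% of all genes and 21.3% of lncRNA genes. In bulk RNA, fewer cells with a transcript and less of it in each cell cannot be told apart, here and below.

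**Figure D2:**
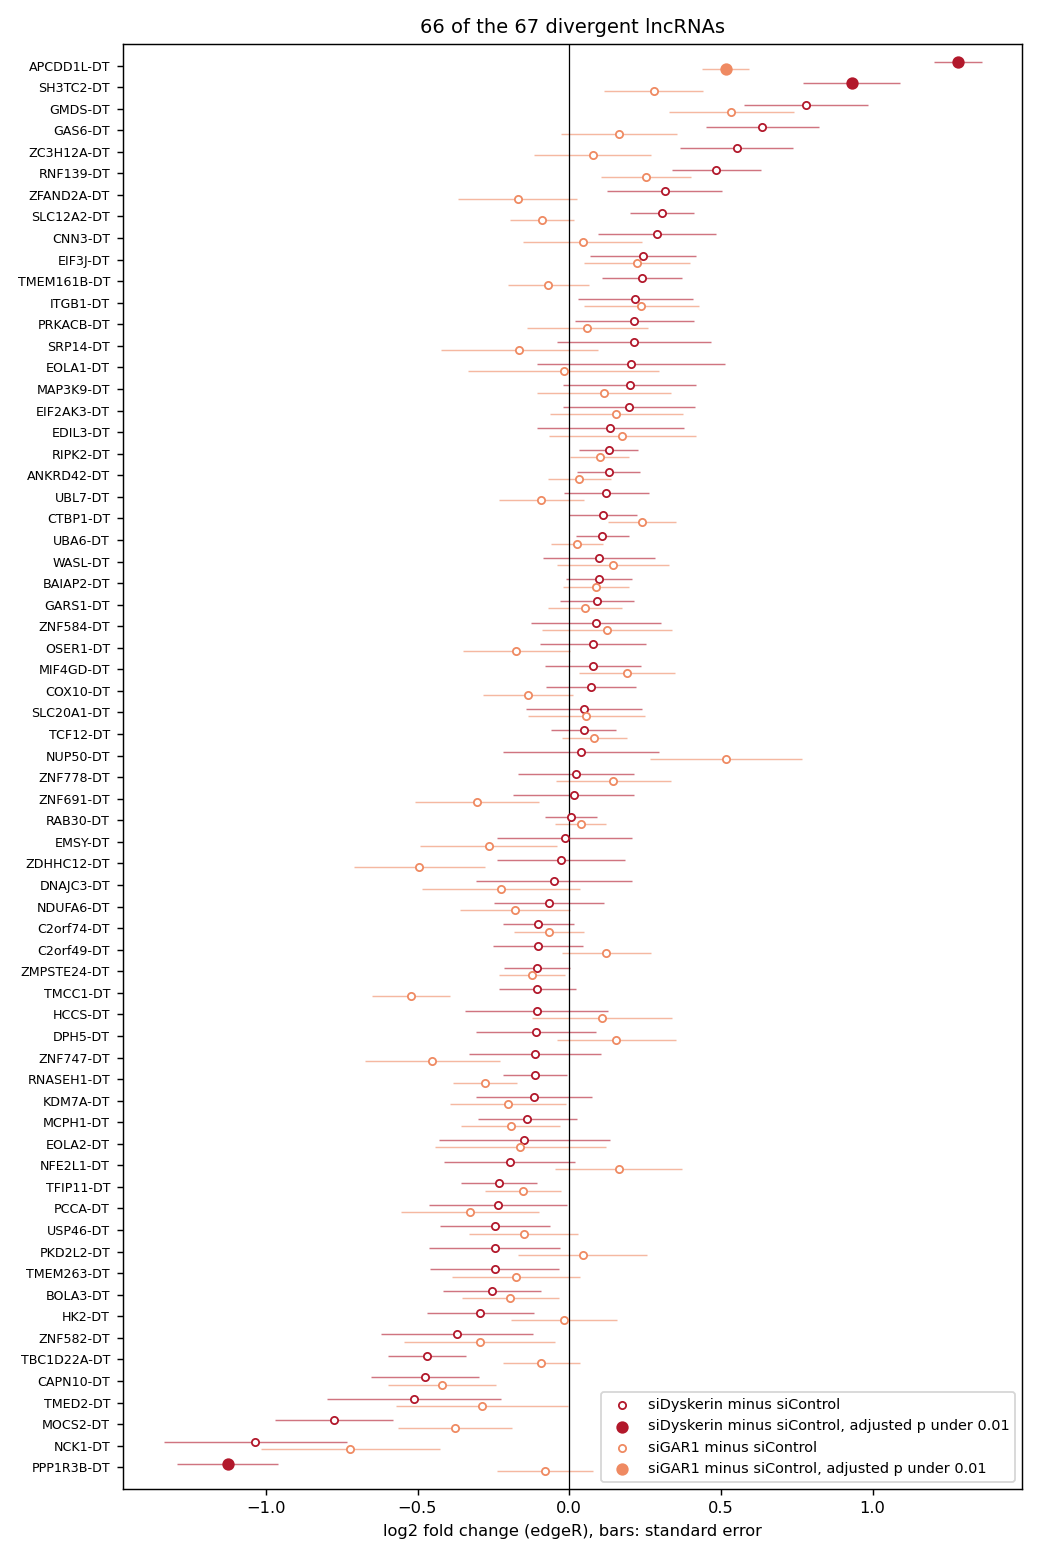
Log2 fold change of 66 of the 67 divergent lncRNAs (horizontal axis) in siDyskerin minus siControl and siGAR1 minus siControl, ordered by the siDyskerin value, with bars of 1 standard error. Filled points passed an adjusted p of 0.01 in edgeR: 3 in siDyskerin and 1 in siGAR1, while most points lie within 0.5 of 0.

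APCDD1L-DT (chr20:58515379-58619888, plus strand) was the clearest case. It had 4634, 4551 and 4633 normalized counts in siDyskerin libraries, 2902, 2754 and 2470 in siGAR1 libraries and 1808, 1825 and 2059 in siControl libraries. The 3 groups did not overlap, siDyskerin standing highest and siGAR1 between it and siControl. The log2 fold change was 1.28 ± 0.08 in siDyskerin (adjusted p = 3.24e-07) and 0.52 ± 0.08 in siGAR1 (adjusted p = 0.00113), and siDyskerin exceeded siGAR1 by 0.77 ± 0.08 (adjusted p = 2.73e-05, edgeR, standard errors, n = 3 each). All 8 of its transcripts in the files were higher in siDyskerin, with ratios of mean normalized counts to siControl of 2.29 to 3.03. A read may stand in more than 1 of them, so their agreement adds no separate evidence to the gene's call. Its partner APCDD1L was near the bottom of the range at 9.50, 15.8 and 14.1 normalized counts in siDyskerin, 21.4, 24.2 and 9.86 in siGAR1 and 14.7, 8.97 and 19.6 in siControl. Those 3 groups overlapped, and no change in APCDD1L passed. APCDD1L-DT alone moved the sum of the members: the 67 made up 0.0251 to 0.0261% of matched reads in siDyskerin and 0.0210 to 0.0216% in siControl, and the 66 others 0.0183 to 0.0191% in siDyskerin and 0.0183 to 0.0185% in siControl.

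SH3TC2-DT (chr5:149063239-149129578, plus strand) had 180, 193 and 189 normalized counts in siDyskerin libraries, 136, 122 and 97.4 in siGAR1 libraries and 84.2, 103 and 109 in siControl libraries. The siDyskerin libraries lay above all others, and siGAR1 overlapped siControl. The log2 fold change was 0.93 ± 0.16 in siDyskerin (adjusted p = 0.00139) and 0.28 ± 0.16 in siGAR1 (adjusted p = 0.33). The direct difference of 0.65 ± 0.16 did not pass (adjusted p = 0.0155, edgeR). SH3TC2, whose protein acts in the endosomes of myelinating Schwann cells, had 2726, 2645 and 2608 normalized counts in siDyskerin, 2685, 2865 and 2617 in siGAR1 and 2088, 2278 and 2210 in siControl. Both knockdowns lay above siControl for the coding gene, with log2 fold changes of 0.28 ± 0.07 and 0.31 ± 0.07 that missed the threshold (adjusted p = 0.0144 in siDyskerin and 0.0115 in siGAR1, edgeR). The call on SH3TC2-DT was lost with length-scaled counts made from TPM (log2 fold change 0.79, adjusted p = 0.063).

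PPP1R3B-DT (chr8:9151695-9425524, plus strand) was the member that fell. It had 85.5, 129 and 94.8 normalized counts in siDyskerin libraries, 212, 247 and 182 in siGAR1 libraries and 219, 234 and 226 in siControl libraries. The siDyskerin libraries lay below all others, while siGAR1 and siControl overlapped. The log2 fold change was -1.13 ± 0.17 in siDyskerin (adjusted p = 0.000482) and -0.08 ± 0.16 in siGAR1 (adjusted p = 0.81), and siDyskerin lay below siGAR1 by -1.05 ± 0.17 (adjusted p = 0.00124, edgeR). PPP1R3B, the coding partner, encodes a subunit that brings protein phosphatase to glycogen. It had 333, 331 and 320 normalized counts in siDyskerin, 348, 284 and 277 in siGAR1 and 352, 330.0 and 362 in siControl, which did not pass in any comparison. The reads of PPP1R3B-DT lay in 3 of its 11 transcripts, which begin 37452 to 37931 bases from the PPP1R3B start, at 0.427 to 0.482 of their siControl mean in siDyskerin. The transcripts annotated within 300 bases of the PPP1R3B start had no reads in the siControl library with the most reads, so the fall was measured on transcripts whose annotated starts are not at the shared promoter.

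**Figure D3:**
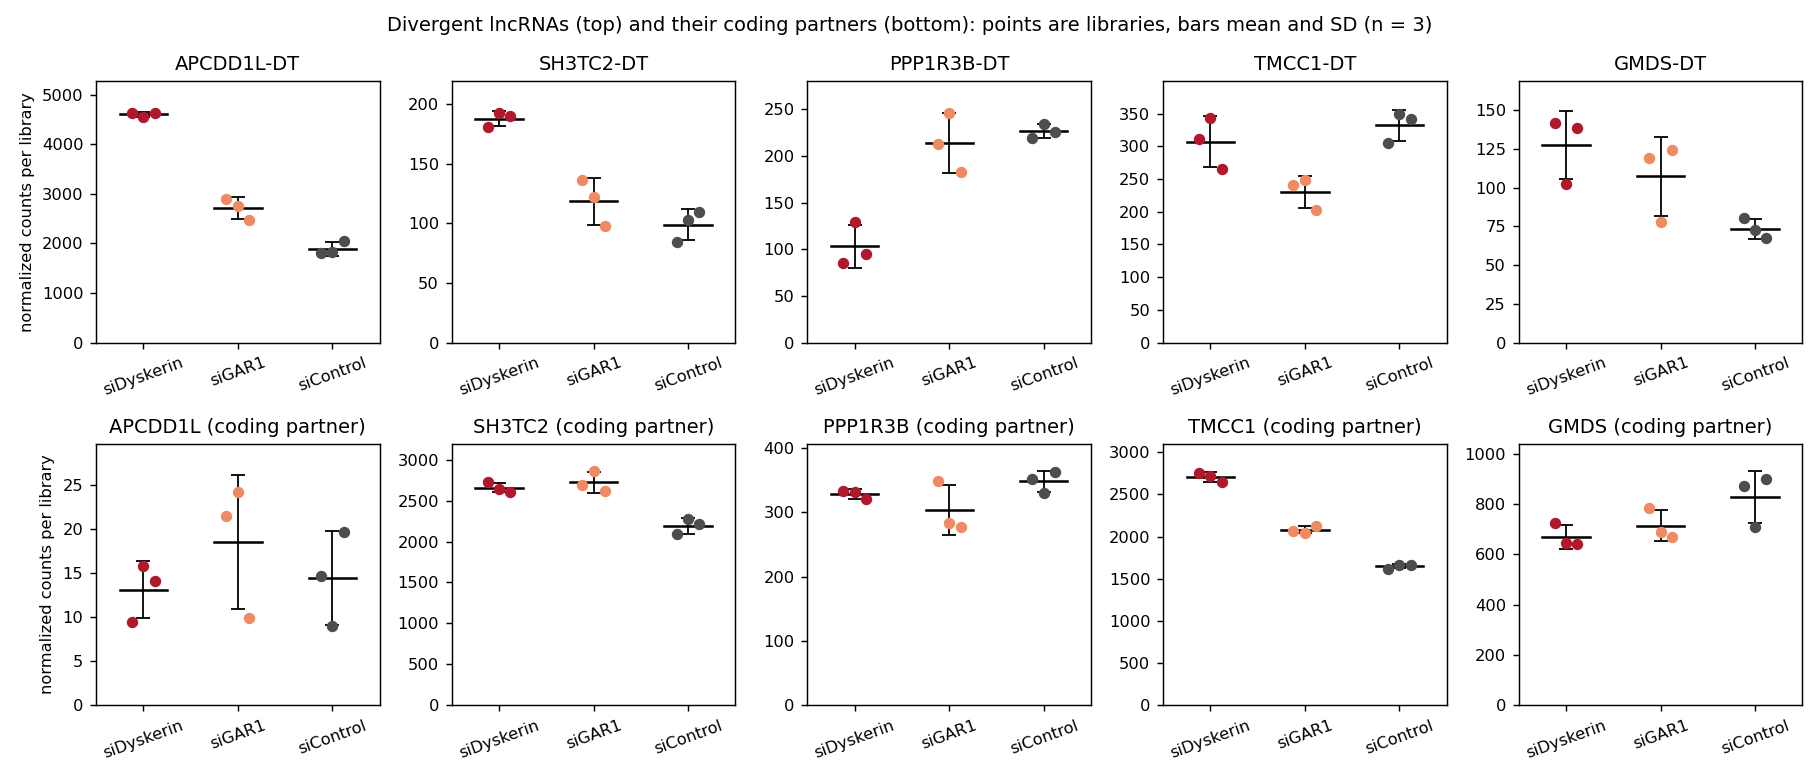
Normalized counts in each library (points) with the mean and SD of 3 libraries (bars) for 5 divergent lncRNAs, above, and their coding partners, below, with siDyskerin, siGAR1 and siControl from left to right. APCDD1L-DT stands at 4551 to 4634 in siDyskerin, above siGAR1 and siControl, while PPP1R3B-DT stands at 85.5 to 129 in siDyskerin, below both.

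Several members near the threshold passed it only under other ways of counting. With the reads of the most abundant transcript of each gene in place of the sum, 8 members passed in siDyskerin in place of 3, with MOCS2-DT, GMDS-DT, TBC1D22A-DT and GAS6-DT among those that came in. The background rose with that setting too, to 9.59% of all genes. With no filter on low counts 6 passed (background 5.69%, of a larger set of genes), with NCK1-DT, MOCS2-DT and GMDS-DT added. With DESeq2 4 passed in siDyskerin (background 11.6%), with MOCS2-DT added. In siGAR1 2 members passed in place of 1 with DESeq2 (background 9.28%), with no filter (4.04%) or with the top transcript (5.81%). MOCS2-DT had 102, 143 and 191 normalized counts in siDyskerin libraries, 173, 227 and 164 in siGAR1 libraries and 234, 257 and 244 in siControl libraries, so that siControl lay above both knockdowns (log2 fold change -0.78 ± 0.19 in siDyskerin, adjusted p = 0.0164, edgeR). It passed with DESeq2, at -0.77 (adjusted p = 0.00385), and also without siDyskerin replicate 3, at -1.01 (adjusted p = 0.00482, edgeR). NCK1-DT, which faces an adaptor gene of receptor tyrosine kinase signalling, had 25.6, 21.9 and 43.8 normalized counts in siDyskerin libraries, 33.6, 28.3 and 49.3 in siGAR1 libraries and 71.8, 64.6 and 43.0 in siControl libraries. Its siControl library 3 overlapped both knockdowns, and the log2 fold change of -1.03 ± 0.30 in siDyskerin did not pass (adjusted p = 0.0361, edgeR). GAS6-DT, facing the gene of a ligand of TAM receptor kinases, had 93.1, 83.2 and 103 normalized counts in siDyskerin libraries, 62.5, 64.7 and 74.0 in siGAR1 libraries and 51.8, 56.5 and 72.4 in siControl libraries. Its siDyskerin libraries lay above all others, with a log2 fold change of 0.64 ± 0.19 that did not pass (adjusted p = 0.0366, edgeR).

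A few coding partners passed in each comparison. In siDyskerin 5 of 66 tested partners passed in edgeR (7.58%, beside 7.60% of protein-coding genes), 4 higher and 1 lower. In siGAR1 also 5 passed (7.58%, 2 higher, 3 lower, beside 4.31% of protein-coding genes), and between siDyskerin and siGAR1 6 (9.09%, 5 higher, 1 lower, beside 6.29%). The differences from these backgrounds were not tested. With DESeq2, 12 of 66 partners passed in siDyskerin (beside 13.3% of protein-coding genes with that tool), 8 of 65 in siGAR1 (beside 10.4%) and 8 of 65 between the knockdowns (beside 12.5%). In edgeR both genes of a pair passed together in 0 pairs in each comparison. With DESeq2 they did so in 2 pairs in siDyskerin, MOCS2-DT with MOCS2 (both lower) and SH3TC2-DT with SH3TC2 (both higher), in 1 pair in siGAR1, TMCC1-DT (lower) with TMCC1 (higher), and in 0 pairs between the knockdowns. Over 66 pairs the log2 fold changes of lncRNA and partner had a Pearson r of -0.02 in siDyskerin and 0.03 in siGAR1, and the signs were alike in 31 pairs in each. These correlations are across pairs within shared libraries and are given as descriptions.

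**Figure D4:**
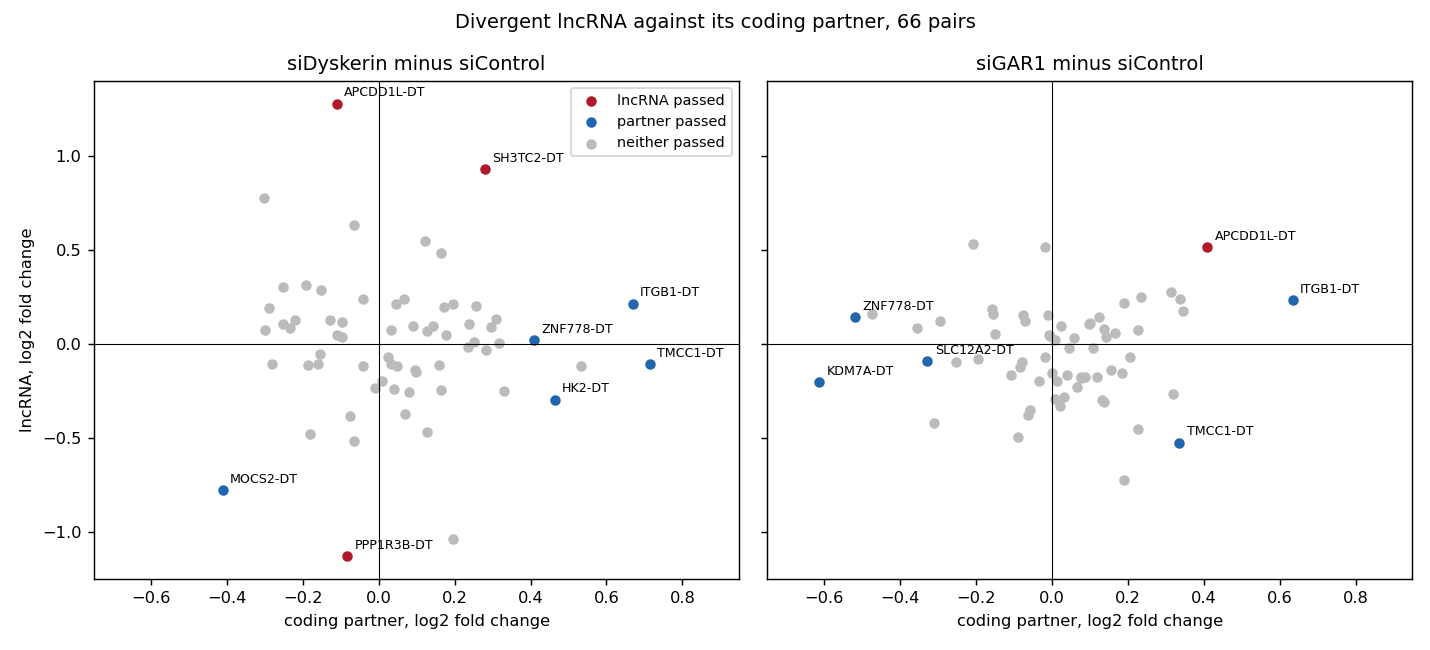
Log2 fold change of each divergent lncRNA (vertical axis) against that of its coding partner (horizontal axis) over 66 pairs, in siDyskerin minus siControl and siGAR1 minus siControl. In edgeR, pairs whose lncRNA passed and pairs whose partner passed are different pairs, and the values show next to no linear relation (r of -0.02 and 0.03).

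ITGB1, the beta chain shared by many integrins, rose by 0.67 ± 0.06 log2 units in siDyskerin (adjusted p = 9.21e-06) and 0.63 ± 0.06 in siGAR1 (adjusted p = 4.07e-05, edgeR). ITGB1-DT had 108, 114 and 126 normalized counts in siDyskerin libraries, 90.4, 120 and 143 in siGAR1 libraries and 82.7, 111 and 106 in siControl libraries, which overlapped. HK2, the hexokinase at the entry to glycolysis, rose by 0.46 ± 0.09 in siDyskerin (adjusted p = 0.0025, edgeR), and HK2-DT had 113, 87.5 and 80.6 normalized counts in siDyskerin libraries, 129, 115 and 97.4 in siGAR1 libraries and 105, 117 and 126 in siControl libraries. The siDyskerin and siControl libraries of HK2-DT overlapped. MOCS2, which makes molybdopterin, fell by 0.41 on the log2 scale in siDyskerin (adjusted p = 0.00157, edgeR). KDM7A, a histone lysine demethylase, fell by 0.61 in siGAR1 (adjusted p = 0.00156), SLC12A2 fell by 0.33 there (adjusted p = 0.00419), and KDM7A-DT and SLC12A2-DT did not pass (edgeR). BAIAP2, an organizer of the actin cytoskeleton, was higher in siDyskerin than in siGAR1 by 0.50 (adjusted p = 0.00297, edgeR), with no call on BAIAP2-DT. The calls on ITGB1, and that on KDM7A in siGAR1, held without any 1 library. That on HK2 in siDyskerin was lost without siDyskerin replicate 1 or 2 or siControl replicate 2 or 3 (log2 fold change 0.42 to 0.48), that on MOCS2 in siDyskerin without siDyskerin replicate 3 or siControl replicate 2 (-0.38 to -0.40), and that on SLC12A2 without siGAR1 replicate 1 or 3 or siControl replicate 2 or 3 (-0.32 to -0.33) or with length-scaled counts (-0.29). The BAIAP2 call was lost without siDyskerin replicate 1 or siGAR1 replicate 1 or 2 (0.44 to 0.46).

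The ratio of a lncRNA to its partner within each library sets the pair against itself and was tested with limma over 594 divergent lncRNA and coding gene pairs. In siDyskerin 3 of 66 member pairs passed, against a background of 1.01% of pairs. In siGAR1 1 passed (background 0.168%), and between siDyskerin and siGAR1 2 passed (background 1.01%). These backgrounds include the member pairs, and the siGAR1 background is the member's own call. Of the 528 other pairs 3 passed in siDyskerin, 0 in siGAR1 and 4 between the knockdowns. The other pairs were not held to the members' read threshold, and the difference in shares was not tested. With length-scaled counts no ratio passed against siControl (background 0.164% in siDyskerin and 0.00% in siGAR1) and 1 passed between the knockdowns (background 0.491%). With the top transcript of each gene 7, 2 and 6 passed (background 2.90%, 1.74% and 3.28% of pairs). The median log2 change of the ratio over member pairs was -0.10 in siDyskerin and -0.08 in siGAR1, beside -0.01 and -0.00 over the 528 other pairs.

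TMCC1-DT (chr3:129893811-129918578, plus strand) fell relative to TMCC1, a membrane protein of the endoplasmic reticulum, in both knockdowns. The log2 ratio was -3.14, -2.98 and -3.31 in siDyskerin libraries, -3.10, -3.03 and -3.38 in siGAR1 libraries and -2.40, -2.25 and -2.28 in siControl libraries. Both knockdowns lay below siControl and overlapped each other. The change was -0.83 ± 0.14 in siDyskerin (adjusted p = 0.00369) and -0.86 ± 0.14 in siGAR1 (adjusted p = 0.00741, limma). The values behind the ratio were these: in siDyskerin TMCC1 rose by 0.72 ± 0.06 (adjusted p = 8.86e-06) with TMCC1-DT at -0.11 ± 0.13, and in siGAR1 TMCC1 rose by 0.34 ± 0.06 (adjusted p = 0.00549) with TMCC1-DT at -0.52 ± 0.13 (adjusted p = 0.0228, edgeR). TMCC1-DT had 312, 343 and 266 normalized counts in siDyskerin libraries, 240, 248 and 202 in siGAR1 libraries and 305, 350 and 341 in siControl libraries, so that siGAR1 alone lay below siControl. The ratio call was lost in siDyskerin without siDyskerin replicate 1 or 3 or siControl replicate 2 or 3 (-0.75 to -0.83), and in siGAR1 without siDyskerin replicate 1 or any 1 siGAR1 or siControl library (-0.76 to -0.93). The TMCC1 call in siGAR1 was lost without any 1 siGAR1 or siControl library or siDyskerin replicate 2 or 3 (0.31 to 0.34), and with length-scaled counts it stood at 0.18.

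GMDS-DT (chr6:2245718-2525976, plus strand) rose relative to GMDS, the dehydratase that begins the making of GDP-fucose, in siDyskerin. The log2 ratio was -2.34, -2.63 and -2.19 in siDyskerin libraries, -2.69, -3.12 and -2.41 in siGAR1 libraries and -3.40, -3.25 and -3.70 in siControl libraries. Both knockdowns lay above siControl, with a change of 1.07 ± 0.20 in siDyskerin (adjusted p = 0.00664) and 0.71 ± 0.20 in siGAR1 (adjusted p = 0.0926, limma). GMDS-DT itself had 141, 102 and 139 normalized counts in siDyskerin libraries, 119, 77.8 and 124 in siGAR1 libraries and 80.4, 72.6 and 67.5 in siControl libraries, and neither gene passed alone in siDyskerin (adjusted p = 0.0207 for GMDS-DT and 0.0872 for GMDS, edgeR). The GMDS-DT counts are sums over 16 transcripts, in which a read may stand more than once. Its transcript with the most reads had 26, 25 and 14 reads in siControl libraries. The ratio call was lost without siDyskerin replicate 1 or 3 or any 1 siControl library (0.94 to 1.17).

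The ratio of PPP1R3B-DT to PPP1R3B was -1.94, -1.35 and -1.73 in siDyskerin libraries, -0.70, -0.20 and -0.60 in siGAR1 libraries and -0.68, -0.49 and -0.68 in siControl libraries on the log2 scale. The siDyskerin libraries lay below all others, by -1.06 ± 0.18 against siControl (adjusted p = 0.00369) and -1.17 ± 0.18 against siGAR1 (adjusted p = 0.00309, limma). The call against siControl was lost without siDyskerin replicate 1 or 3 or any 1 siControl library (-0.93 to -1.09), and that against siGAR1 without siDyskerin replicate 1 or 3 or siGAR1 replicate 2 (-1.02 to -1.14).

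ZNF778-DT (chr16:89215160-89217653, minus strand) stood out between the knockdowns through its partner, a gene of the KRAB zinc finger family. ZNF778 had 3486, 3507 and 3350 normalized counts in siDyskerin libraries, 1854, 1629 and 1959 in siGAR1 libraries and 2684, 2714 and 2384 in siControl libraries. The 3 groups did not overlap, siDyskerin above siControl by 0.41 ± 0.08 log2 units (adjusted p = 0.00366) and siGAR1 below it by -0.52 ± 0.08 (adjusted p = 0.00149, edgeR). The lncRNA had 71.2, 65.7 and 59.4 normalized counts in siDyskerin, 81.1, 60.6 and 72.7 in siGAR1 and 74.9, 60.1 and 57.7 in siControl, which overlapped throughout. The ratio was lower in siDyskerin than in siGAR1 by -1.05 ± 0.18 (adjusted p = 0.00363, limma), a call lost without any 1 siDyskerin library or siGAR1 replicate 1 or 2 (-0.97 to -1.10). The ZNF778 call in siDyskerin was lost without any 1 siDyskerin library or siControl replicate 3 (0.35 to 0.42).

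**Figure D5:**
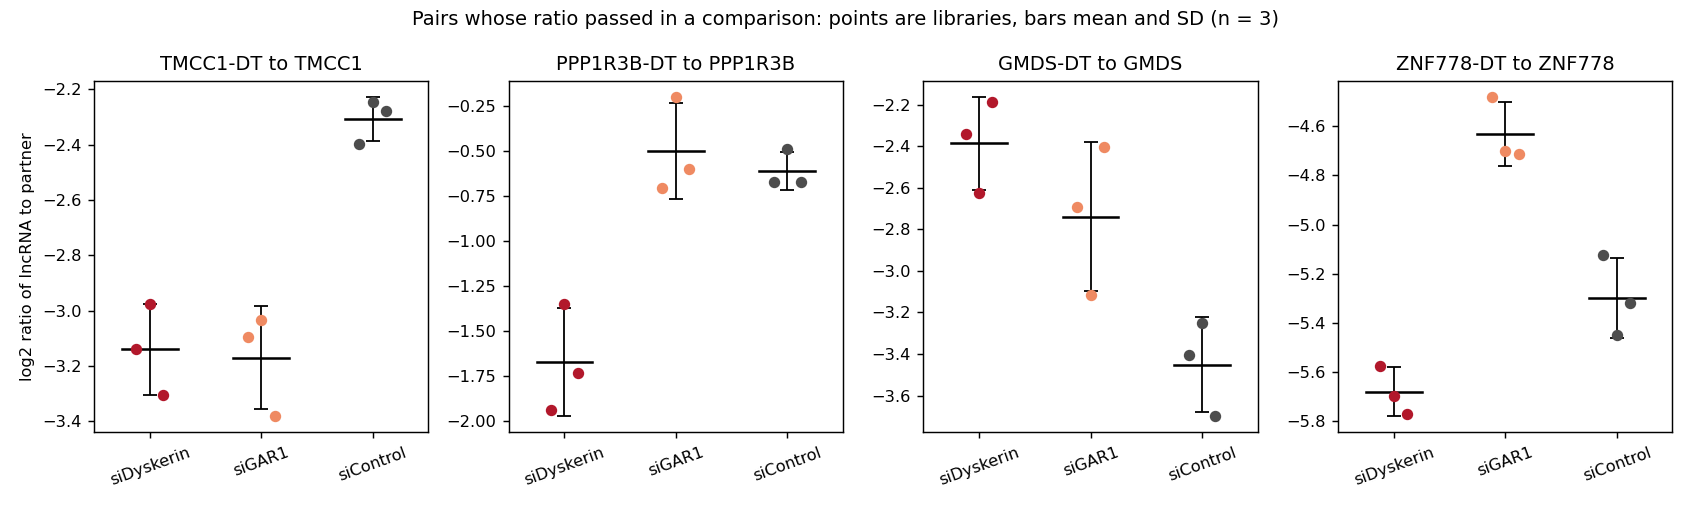
Log2 ratio of lncRNA to coding partner in each library (points) with the mean and SD of 3 libraries (bars), for the 4 pairs whose ratio passed in a comparison, with siDyskerin, siGAR1 and siControl from left to right. TMCC1-DT stands at -3.31 to -2.98 in siDyskerin and -2.40 to -2.25 in siControl, and GMDS-DT at -2.63 to -2.19 in siDyskerin and -3.70 to -3.25 in siControl.

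The genes that end and destroy divergent RNAs were called against siControl in a smaller share than all genes, a difference that was not tested. Of 62 genes of the exosome, its nuclear adaptors, the cap-binding and early termination factors, Integrator, the cleavage and polyadenylation machinery and the U1 snRNP proteins, 2 passed in siDyskerin (3.23%, beside 6.40% of all genes and 7.60% of protein-coding genes) and 1 in siGAR1 (1.61%, beside 3.42% and 4.31%) in edgeR, with median log2 fold changes of 0.01 and 0.06. With DESeq2, 6 and 5 passed, beside 11.6% and 9.28% of all genes. INTS5, a subunit of the Integrator complex that cuts nascent RNA, had 462, 379 and 396 normalized counts in siDyskerin libraries, 527, 566 and 574 in siGAR1 libraries and 669, 590.1 and 635 in siControl libraries. It fell by 0.61 in siDyskerin (adjusted p = 0.00119, edgeR). NUDT21, a subunit of cleavage factor I, rose by 0.31 in siDyskerin (adjusted p = 0.00502) and 0.36 in siGAR1 (adjusted p = 0.00313, edgeR). In edgeR 0 of the 13 exosome core genes and 0 of the 8 adaptor genes passed against siControl, while 5 of 13 and 2 of 8 had an unadjusted p under 0.05 in siDyskerin and 2 of 13 and 5 of 8 in siGAR1, beside 26.1% and 24.0% of all genes. With DESeq2, 1 exosome gene and 0 adaptor genes passed in siDyskerin and 1 of each in siGAR1. Between siDyskerin and siGAR1 4 of the 62 passed in edgeR (6.45%, beside 5.39% of all genes and 6.29% of protein-coding genes). The exosome subunit gene EXOSC9 (-0.37), INTS2 (-0.34) and the polyadenylation factor gene FIP1L1 (-0.48) were lower in siDyskerin than in siGAR1, and the cap-binding subunit gene NCBP2 (0.30) was higher.

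Other lncRNAs of like abundance gave counts of the same order. Of 175 lncRNAs with symbols ending in -AS1 and the same siControl mean, 7 passed in siDyskerin (4.0%) and 2 in siGAR1 (1.14%), and of 138 LINC lncRNAs 4 passed in each (2.90%), in edgeR. These classes were not tested against the members. Of 131 -DT lncRNAs below the threshold of 50 reads that were tested in edgeR, 0 passed against siControl. In edgeR 10 of them in siDyskerin and 9 in siGAR1 had an unadjusted p under 0.05 (7.63% and 6.87%). DESeq2 gave an adjusted p to only 87 of the 131 in siDyskerin and 18 in siGAR1, and 0 of these passed.

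Among the members, the 14 whose canonical transcript has 1 exon had median log2 fold changes of -0.11 in siDyskerin and -0.06 in siGAR1, and the 53 spliced ones 0.05 and -0.02. All calls were in spliced members, which are most of the members. An unadjusted p under 0.05 in siDyskerin was reached by 3 of the 14 (21.4%) and 10 of the 53 (18.9%) in edgeR. The 2 kinds were not tested against each other. Annotated small RNA genes lie inside 2 members on the same strand. UBA6-DT holds one under the symbol SNORA62 in an exon, and TMEM161B-DT one under the symbol SNORA70. They were found by annotation and position alone, and whether either yields a working H/ACA snoRNA was not tested. UBA6-DT had 699.0, 699.5 and 668 normalized counts in siDyskerin libraries, 636, 697 and 616 in siGAR1 libraries and 652, 639 and 624 in siControl libraries. Its siDyskerin libraries lay above its siControl libraries, by 0.11 ± 0.09 log2 units that did not pass (adjusted p = 0.47, edgeR). TMEM161B-DT had 265, 281 and 279 normalized counts in siDyskerin libraries, 213, 222 and 232 in siGAR1 libraries and 200.1, 276 and 222 in siControl libraries, which overlapped. The most abundant members beside APCDD1L-DT did not pass: RAB30-DT stood at 0.01 ± 0.09 in siDyskerin and 0.04 ± 0.09 in siGAR1, and GARS1-DT at 0.09 ± 0.12 in siDyskerin and 0.05 ± 0.12 in siGAR1 (log2 fold changes, edgeR). SLC12A2-DT had 758, 720.5 and 762 normalized counts in siDyskerin libraries, 510, 552 and 646 in siGAR1 libraries and 556, 603 and 657 in siControl libraries. Its siDyskerin libraries lay above all others, at 0.31 ± 0.10 log2 units above siControl (adjusted p = 0.07) and 0.39 ± 0.10 above siGAR1 (adjusted p = 0.0253, edgeR). Against siGAR1, SLC12A2-DT and SH3TC2-DT passed with DESeq2 or with no filter on low counts, giving 4 members in place of 2 (background 11.5% and 4.99%).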

How the data were processed

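Nuclear RNA libraries (ribosomal RNA depleted, stranded, paired-end) of 3 siRNA groups with 3 libraries each were analysed. The authors trimmed the reads, removed rRNA and tRNA reads and quantified transcripts with Salmon (1.2.0) on GENCODE 27; the deposited values used are estimated counts and TPM per transcript. Transcripts were matched by identifier to GENCODE 44 on GRCh38, leaving 3.69 to 3.84% of reads unmatched, rounded and summed per gene. All 9 libraries were fitted together with edgeR (4.0.16): TMM, filterByExpr, robust quasi-likelihood F-test, Benjamini-Hochberg adjustment over all genes, calls at an adjusted p under 0.01, standard errors from the F statistic. Log2 ratios of lncRNA to partner (prior count 2) were tested with limma (3.58.1). Both were tested on simulated data. Alternatives included DESeq2 (1.42.0), other scaling and filters, length-scaled counts, the top transcript of a gene, and leaving out each library. Named genes were the calls, at most 10 per direction by p, at most 8 between the knockdowns and per ratio comparison, the 5 highest in TPM, the 3 on either side of the threshold and factor genes that passed, and those passing only in an alternative were named after their values were seen. The members and lists were chosen with earlier results of these data known. Precision depends on a gene's reads and on its spread between libraries. The p-values rest on the spread within all 3 groups, estimated together over the 9 libraries and in part across genes. The individual values of 1 member, and 1 sequence, are not reported here.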

Additional observations from a re-analysis of the deposited data

Results flagged for a closer look

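The following values differed between siDyskerin and siGAR1 by a direct test of the 2 groups at an adjusted p of 0.01 (edgeR for genes, limma for ratios). Among lncRNAs, APCDD1L-DT was higher in siDyskerin by 0.77 and PPP1R3B-DT lower by -1.05 log2 units. Among ratios to the partner, those of PPP1R3B-DT (-1.17) and ZNF778-DT (-1.05) were lower in siDyskerin. Among coding partners, ZNF778 (0.93), KDM7A (0.57), BAIAP2 (0.50), HK2 (0.42) and TMCC1 (0.38) were higher in siDyskerin and MOCS2 (-0.35) was lower. Leaving out 1 library ended the MOCS2 call for siControl replicate 3, siDyskerin replicates 1 and 3 and each siGAR1 library (-0.31 to -0.38), and the HK2 call for siControl replicate 3, each siDyskerin library and siGAR1 replicates 2 and 3 (0.32 to 0.45). It ended the KDM7A call for siDyskerin replicate 2 and siGAR1 replicate 2 (0.53 to 0.54), the TMCC1 call for siGAR1 replicate 1 (0.37) and the BAIAP2 call for siDyskerin replicate 1 and siGAR1 replicates 1 and 2 (0.44 to 0.46). With length-scaled counts the calls on TMCC1 (0.37, adjusted p = 0.058), MOCS2 (-0.35, adjusted p = 0.0143) and KDM7A (0.54, adjusted p = 0.0121) were lost as well (edgeR).

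One -DT lncRNA below the read threshold was also picked out, TWF2-DT, facing the gene of an actin-binding twinfilin. It had 45.6, 43.8 and 62.2 normalized counts in siDyskerin libraries, 18.6, 20.2 and 12.3 in siGAR1 libraries and 35.5, 35.0 and 19.6 in siControl libraries. The 2 knockdowns did not overlap and differed by 1.53 ± 0.30 log2 units (adjusted p = 0.00462, edgeR), and neither passed against siControl.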

How the results depend on the processing

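APCDD1L-DT and PPP1R3B-DT kept their calls in all 16 alternatives of each comparison that called them, and SH3TC2-DT lost its call in 1 of 16. Members called in siDyskerin (3) moved to 4 with DESeq2, 6 with no low count filter and 8 with the top transcript. They moved to 2 with DESeq2, no filter or the top transcript in siGAR1 (1), and to 4 with DESeq2 or no filter between the knockdowns (2). Without 1 library each the counts were 3 to 4, 1 to 1 and 2 to 3. The median log2 fold change in siDyskerin (0.02) was 0.048 for members by the mean over all 9 libraries and 0.070 for those at 200 reads or more, and -0.028 to 0.049 without 1 library. The siGAR1 median was -0.07 to -0.01 without 1 library. The median between the knockdowns (0.02) was 0.054 with length-scaled counts and 0.018 to 0.054 without 1 library. Ratio calls fell to 0 in siDyskerin and siGAR1 and to 1 between them with length-scaled counts, were 7, 2 and 6 with the top transcript and 1 between the knockdowns for members at 200 reads or more, and without 1 library were 0 to 4, 0 to 1 and 0 to 2; leaving out a library also leaves fewer samples. Replicate numbers did not pair the libraries (correlations of deviations -0.07 to 0.10): a replicate block left the member calls at 3, 1 and 2 and gave 2, 1 and 3 ratio calls, without that on GMDS-DT in siDyskerin (1.07, adjusted p = 0.0129, limma). The causes were not tested. Members near 50 reads carry wide errors, and smaller changes in them were not detectable at this depth.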
